A study of Mus musculus with 8 samples.

Results

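Red blood cells carry a small RNA signature of their own, and it was followed here in sperm preparations. Its members were 5 miRNAs, namely miR-451a, miR-486a-5p, miR-486b-5p, miR-144-3p and miR-144-5p, and the adult alpha globin genes Hba-a1 and Hba-a2 with every gene of the table whose symbol begins with Hbb-b, which were Hbb-bs, Hbb-bt and Hbb-bh1. That gave 10 members among 45405 summed features of the count table, of which 13513 had enough counts to be tested and 8 were members. They serve as a gauge of blood RNA in each library. The rule that names them uses no measured value, but they were chosen with earlier results of these data known.

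The samples were mouse sperm, with 4 ethanol libraries and 4 control libraries, and the series title places them after alcohol had been stopped for a month. Total RNA was extracted with Trizol and small RNA libraries were made with Qiaseq reagents. Strain, age, dose and length of drinking are not given in the labels, and all groups shared the tissue and the protocol. The labels do not say that replicates are separate animals, so every p-value measures only the spread between these libraries, which may be technical. Library totals ran from 3481865 to 6975180 counts.

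Mature red cells have lost their nucleus and most of their RNA, but keep miR-451a and miR-486 at high levels and some globin mRNA. MiR-144 and miR-451a are cut from 1 transcript that the erythroid factor GATA1 switches on. MiR-451a is unusual in that its hairpin is trimmed by the slicer protein Argonaute 2 and not by Dicer. MiR-486 comes from an intron of Ank1, which encodes the red cell membrane protein ankyrin. In blood plasma, miR-451a is a common gauge of red cell lysis. Alpha and beta globin chains join to form hemoglobin, and globin mRNA in a small RNA library is present as fragments. In bulk samples such as these, fewer red cells and less RNA per red cell cannot be told apart.

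The sequences below show what the red cell miRNA counts stand for. RefSeq (build GRCm38.p6) gave the mature forms of 3 of the 5 miRNAs. The seed, bases 2 to 8 of the miRNA, which pairs with target mRNAs, is in capitals, and the 3 seeds differ from each other.
mmu-miR-451a: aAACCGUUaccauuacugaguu
mmu-miR-144-3p: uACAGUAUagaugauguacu
mmu-miR-144-5p: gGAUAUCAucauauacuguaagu
They lie on the plus strand at chr11:78073186-78073207 for miR-451a, chr11:78073047-78073066 for miR-144-3p and chr11:78073010-78073032 for miR-144-5p. The hairpins are shown because miR-451a was counted in the table under its hairpin as well. Capitals mark the mature miRNAs within them.
Mir144: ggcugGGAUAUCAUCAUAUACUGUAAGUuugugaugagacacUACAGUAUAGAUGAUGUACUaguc
Mir451a: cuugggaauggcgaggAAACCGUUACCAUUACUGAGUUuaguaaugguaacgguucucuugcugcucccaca
The Mir144 hairpin covers chr11:78073005-78073070 and the Mir451a hairpin chr11:78073170-78073241, with 99 bases between them. MiR-486a-5p and miR-486b-5p are named only.

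Of the 8 members tested, 6 were lower in ethanol sperm and none was higher. The 4 globins among the 8 passed the filter on low counts through the 4 control libraries, which favours a lower call. The counts of members in this paragraph are therefore a description. The members that fell were miR-451a, miR-144-5p, miR-486a-5p, miR-486b-5p, Hba-a1 and Hba-a2, with log2 fold changes (ethanol over control) between -3.04 and -2.01. As described below, miR-486a-5p and miR-486b-5p are best read as 1 measurement, and so are Hba-a1 and Hba-a2, so the 6 are not independent. The test was edgeR's quasi-likelihood test with Benjamini-Hochberg adjustment over all features at a threshold of 0.05, which called 1.75% of all features lower and 11.8% higher. At an unadjusted p under 0.05, 8 members were lower and 0 higher, where 8.67% of all features were lower and 24.3% higher. DESeq2's Wald test called 8 members lower and 0 higher, and 6.1% of all features lower and 17.1% higher. The members belong to classes that moved in opposite directions, so their backgrounds differ: 39.4% of tested miRNAs were called lower, but 0.153% of tested mRNA exon features were, and 0.442% of tested miRNAs were called higher. All 4 miRNA members tested fell and Hba-a1 and Hba-a2 were among 10 mRNA exon features that fell. Without any 1 of the 4 control libraries no member was past the threshold. Features past it in either direction then numbered 3, 3, 7 and 10 without control replicates 1, 2, 3 and 4 in turn. From 14861 to 15111 features were tested. In each of these fits 8 members were lower at an unadjusted p under 0.05. The share of all features lower at that p was 5.75%, 7.73%, 8.79% and 8.94% without control replicates 1, 2, 3 and 4 in turn. Without ethanol replicate 2, 3 of 9 members tested were past the threshold, as were 381 features lower and 989 higher of 14387 tested.

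The codes in the sample descriptions have 1 form for ethanol replicates 1 and 2, another for ethanol replicates 3 and 4 and another for the controls, and what they stand for is not stated. Against ethanol replicates 1 and 2 only, 8 of 9 members tested were called lower, as were 3.7% of all features, with a log2 fold change of -3.87 for miR-451a and -2.74 for Hba-a1 (adjusted p of 0.00864 and 0.00244, edgeR). Against ethanol replicates 3 and 4 only, 0 of 9 were called lower, against 1.73% of all features, and 6 were lower at an unadjusted p under 0.05, as were 9.92%. The values were then -2.57 for miR-451a and -1.58 for Hba-a1 (adjusted p of 0.168 and 0.0593). The controls share 1 form, so the code and the group cannot be told apart.

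**Figure D1:**
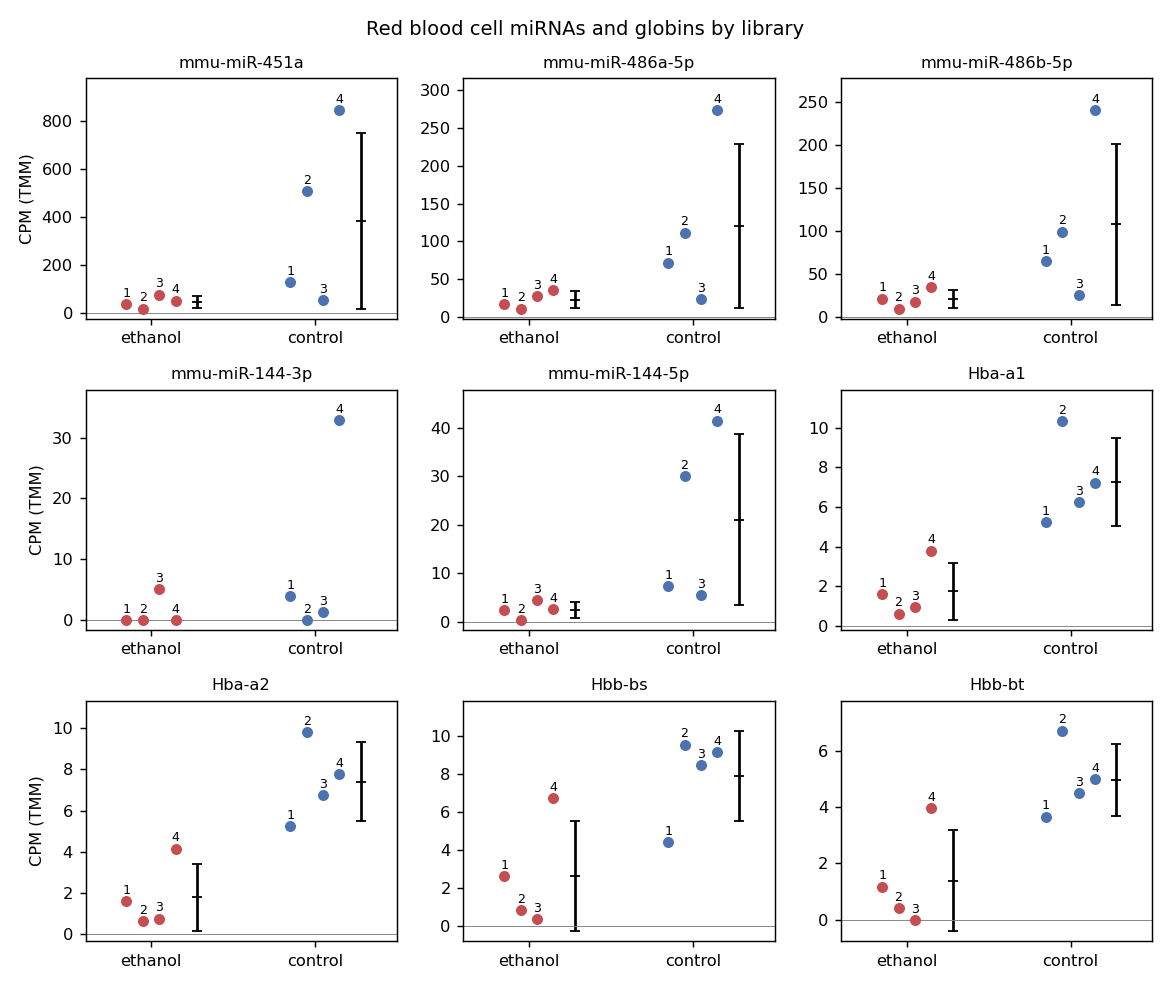
Level in CPM (counts per 1000000, linear axis from 0) of the red cell miRNAs and globins, 1 point per library with its replicate number, ethanol left of control in each panel; black bars are group means with SD, not drawn for miR-144-3p. In miR-451a the control libraries spread from 54.7 to 848, whereas the control values of Hba-a1 stay between 5.24 and 10.3.

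MiR-451a, the most studied red cell miRNA, had 37.9, 19.1, 77.7 and 52.8 counts per 1000000 (CPM, scaled for library composition by TMM, the trimmed mean of M-values) in ethanol replicates 1 to 4. In control replicates 1 to 4 it had 131, 508, 54.7 and 848 CPM. Control replicates 2 and 4 were far above the rest, and control replicate 3 lay below ethanol replicate 3, so the groups overlapped. Means were 46.9 ± 24.7 CPM in ethanol sperm and 385 ± 366 CPM in control sperm (SD, n = 4 each). The log2 fold change, ethanol over control, was -3.04 ± 0.75 (SE) with an adjusted p of 0.0286 in edgeR. Without control replicate 4 it was -2.39, with an adjusted p of 0.0637, and without ethanol replicate 2 it was -2.81, with an adjusted p of 0.0913. The highest ethanol library was 4.06 times the lowest, and the highest control library 15.5 times the lowest.

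Further counts of miR-451a stood in the table under its precursor name. The miRNA entry named mmu-mir-451a held 1905 counts in the ethanol libraries and 7178 in the control libraries, and its log2 fold change was -2.55. The hairpin entry of the same name held 1383 counts in the ethanol libraries and 5236 in the control libraries, with a log2 fold change of -2.54, and there every ethanol library was below every control library. Both entries had an adjusted p of 0.0286 in edgeR. The sources used here do not state how reads were assigned, and the 3 entries may share reads, so they are not independent measurements.

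MiR-144-5p, the other strand of the clustered miR-144 hairpin, had 2.50, 0.42, 4.53 and 2.59 CPM in ethanol replicates 1 to 4. It had 7.33, 29.99, 5.49 and 41.4 CPM in control replicates 1 to 4. Control replicates 2 and 4 were again the highest, and every ethanol library was below every control library, which held for 41.6% of tested miRNAs and for 6.91% of all features. Its log2 fold change was -3.04 ± 0.68 (SE), with an adjusted p of 0.0286 in edgeR.

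MiR-144-3p, the guide strand in red cells, was too sparse to be tested. Its counts were 0, 0, 27 and 0 in ethanol replicates 1 to 4 and 15, 0, 5 and 118 in control replicates 1 to 4. It did not follow miR-144-5p in every library: control replicate 2 had 116 counts of the 5p strand and 0 of the 3p strand. Zeros also turned up in miRNAs that were abundant elsewhere: of 124 whose median passed 100 counts, 23 had a library listed at 0. A 0 for miR-144-3p is therefore given as listed.

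MiR-486a-5p, made in maturing red cells and also in muscle, had 17.3, 11.2, 28.3 and 36.0 CPM in ethanol replicates 1 to 4. In control replicates 1 to 4 it had 72.01, 112, 23.5 and 274 CPM. Control replicate 4 was the highest and control replicate 3 lay within the ethanol range. MiR-486b-5p had 21.9, 10.1, 18.3 and 34.8 CPM in ethanol replicates 1 to 4. It had 65.7, 99.5, 25.7 and 240.3 CPM in control replicates 1 to 4. The groups overlapped in the same way, again through control replicate 3 alone.

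The log2 fold changes were -2.37 ± 0.64 (SE, adjusted p = 0.0320, edgeR) for miR-486a-5p and -2.34 ± 0.61 (adjusted p = 0.0302) for miR-486b-5p. Without control replicate 4 they were -1.66 and -1.67, with adjusted p of 0.0834 and 0.0754. The mouse genes for miR-486a and miR-486b give the same mature sequence, so reads of one cannot be told from reads of the other. The share of their summed counts listed under miR-486a-5p was 44.2%, 52.5%, 60.7% and 50.9% in ethanol replicates 1 to 4, and 52.3%, 52.9%, 47.7% and 53.2% in control replicates 1 to 4. They are best read as 1 measurement.

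The miRNA members were next set against miRNAs alone, because the share of counts that were miRNAs was itself lower in ethanol sperm. It was 10.2%, 6.47%, 11.1% and 6.99% in ethanol replicates 1 to 4 and 19.2%, 27.98%, 18.3% and 17.6% in control replicates 1 to 4, without overlap. In the fit over all features, the median log2 fold change was -1.52 over 226 miRNAs tested, against -0.01 over all features. Ordered from the lowest of those miRNAs, miR-144-5p held place 2, miR-451a place 3, miR-486a-5p place 19 and miR-486b-5p place 22.

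With miRNAs alone in the fit, no member passed the threshold. The log2 fold change of miR-451a was then -1.60 ± 0.73 (SE), with an adjusted p of 0.492 in edgeR over 241 miRNAs. It was -1.71 ± 0.68 for miR-144-5p, with an adjusted p of 0.410, and it was -0.86 ± 0.70 for miR-486a-5p and -0.77 ± 0.70 for miR-486b-5p, with adjusted p of 0.756 and 0.757. In that fit 0.0% of miRNAs were called lower, and 5 miRNAs were lower at an unadjusted p under 0.05, of which miR-144-5p was 1. Limma-voom over all features called 0 members, with 8 lower at an unadjusted p under 0.05, where 11.7% of all features were lower. The direction of each miRNA member stayed negative in both fits.

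**Figure D2:**
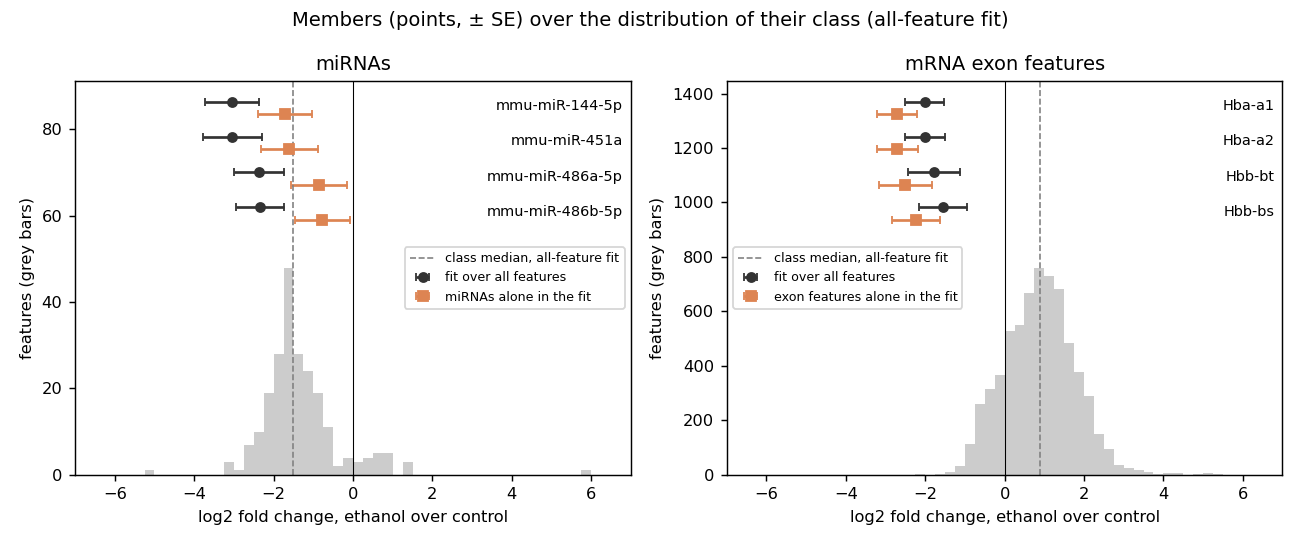
Histograms of log2 fold changes (ethanol over control) of the miRNAs, left, and mRNA exon features, right, tested over all features; points with SE bars are members in that fit (dark) and in the fit to their own class (orange), and the dashed line is the class median. The miRNA members move toward 0 when fitted with miRNAs alone, while Hba-a1 goes to -2.71 when fitted with exon features alone.

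Scaled to the miRNAs of its own library, miR-451a made up 400 (Wilson 95% interval 354 to 452), 419 (342 to 515), 596 (542 to 657) and 767 (685 to 857) per 1000000 miRNA counts in ethanol replicates 1 to 4. In control replicates 1 to 4 it made up 617 (566 to 674), 1682 (1609 to 1758), 284 (248.6 to 324) and 3805 (3673 to 3943) per 1000000. Control replicate 3 had the lowest share of all 8 libraries and control replicate 4 the highest. These intervals cover counting error only, and control libraries differed from each other by far more than that. Ordered by counts, miR-451a stood at places 90, 98, 87 and 74 among the miRNAs detected in ethanol replicates 1 to 4, and at places 81, 56, 106 and 38 in control replicates 1 to 4.

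A ratio to a second miRNA needs no scaling between libraries, and miR-16-5p, an abundant miRNA of many cell types that include red cells, served for that. MiR-16-5p was itself lower in ethanol sperm in the fit over all features (log2 fold change -1.50, adjusted p = 0.0477, edgeR). Its CPM in every ethanol library was below that in every control library, so the ratio is not to an unchanged reference. There were 1.38, 1.70, 2.24 and 2.58 miR-451a counts per 1000 miR-16-5p counts in ethanol replicates 1 to 4. There were 1.93, 5.85, 1.12 and 13.6 in control replicates 1 to 4. The log2 ratio averaged -9.03 ± 0.40 in ethanol sperm and -8.11 ± 1.61 in control sperm (SD, n = 4 each). The difference of -0.92 had p = 0.371 in a two-sided exact permutation test over all 70 assignments, whose smallest possible p is 0.0286. Leaving out control replicate 4 brought the difference to -0.28, with an exact p of 0.771.

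**Figure D3:**
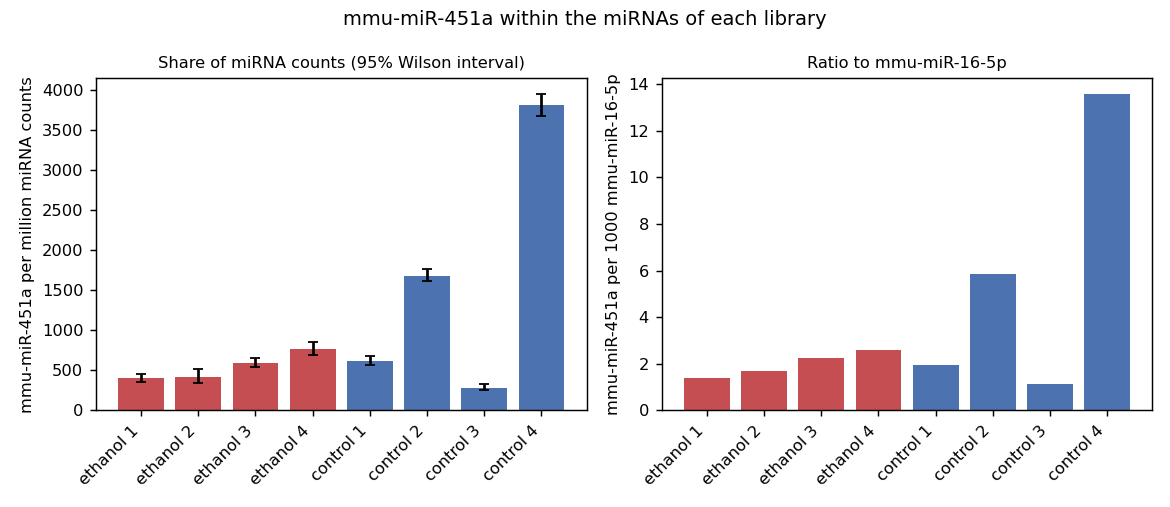
MiR-451a relative to the miRNAs of its own library, 1 bar per library, ethanol (red) left of control (blue): per 1000000 miRNA counts with Wilson 95% intervals, left panel, and per 1000 miR-16-5p counts, right panel. In the left panel the ethanol libraries run from 400 to 767 and the control libraries from 284 to 3805, so the ethanol range lies inside the control range.

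The globins are transcribed in nucleated red cell precursors, and their fragments were counted over exons. The promoters of the 4 adult globin genes that were tested are shown because the alpha and beta genes had log2 fold changes of the same sign. Each stretch is the 100 bases before the RefSeq gene start (build GRCm38.p6), 5′ to 3′ on the gene's strand. Capitals mark the letters TATA, CCAAT, which NF-Y binds, CACCC, which the erythroid factor KLF1 binds, and GATA, which GATA factors bind. Each was searched on both strands, so a CCAAT on the other strand appears as its complement ATTGG.
Hba-a1: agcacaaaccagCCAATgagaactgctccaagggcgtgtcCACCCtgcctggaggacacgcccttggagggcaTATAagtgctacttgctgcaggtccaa
Hba-a2: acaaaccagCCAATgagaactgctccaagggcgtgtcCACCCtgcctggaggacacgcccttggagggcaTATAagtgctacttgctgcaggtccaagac
Hbb-bs: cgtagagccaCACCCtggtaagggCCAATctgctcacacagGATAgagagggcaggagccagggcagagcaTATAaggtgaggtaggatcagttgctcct
Hbb-bt: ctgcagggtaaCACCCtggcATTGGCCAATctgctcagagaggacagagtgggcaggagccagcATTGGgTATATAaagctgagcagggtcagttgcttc
They lie at chr11:32283572-32283671 (plus strand) for Hba-a1, chr11:32296392-32296491 (plus) for Hba-a2, chr7:103827929-103828028 (minus) for Hbb-bs and chr7:103813924-103814023 (minus) for Hbb-bt.

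All 4 promoters held TATA, CCAAT and CACCC, and Hbb-bs alone held GATA. Hbb-bt had 3 matches to CCAAT and 2 overlapping matches to TATA. Of 32851 promoters read over the same 100 bases, 15.2% held TATA, 18.9% CCAAT, 27.2% CACCC and 25.04% GATA. The alpha globin promoters were identical over 97 of 97 bases once shifted by 3 bases, and the beta globin promoters over 73 of 99. A match is a description of letters and not a measured binding site.

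Hba-a1, an adult alpha globin gene, had 1.62, 0.63, 0.94 and 3.80 CPM in ethanol replicates 1 to 4, from 11, 3, 5 and 22 counts. In control replicates 1 to 4 it had 5.24, 10.3, 6.24 and 7.23 CPM, from 20, 40, 25 and 26 counts. Every ethanol library was below every control library, which held for 1.15% of tested mRNA exon features. Nothing is read from that share, since Hba-a1 passed the filter on low counts only through the control libraries, which favours such a separation. Means were 1.75 ± 1.43 CPM in ethanol sperm and 7.26 ± 2.21 CPM in control sperm (SD, n = 4 each), and the log2 fold change was -2.02 ± 0.49 (SE, adjusted p = 0.0286, edgeR).

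Hba-a2, its near-identical neighbour, had 1.62, 0.63, 0.75 and 4.15 CPM in ethanol replicates 1 to 4. It had 5.24, 9.82, 6.74 and 7.79 CPM in control replicates 1 to 4. The groups again did not overlap, and the log2 fold change was -2.01 ± 0.51 (SE, adjusted p = 0.0291, edgeR). The coding sequences of the pair are nearly the same, and their counts were equal in 7, 8 and 4 of 8 libraries over their 3 exon entries. Reads of one cannot be told from reads of the other, so the pair is best read as 1 measurement and its split as uncertain.

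Hbb-bs, an adult beta globin gene of the single haplotype carried by C57BL strains, had 2.64, 0.84, 0.38 and 6.75 CPM in ethanol replicates 1 to 4. In control replicates 1 to 4 it had 4.45, 9.57, 8.49 and 9.18 CPM. Ethanol replicate 4 lay above control replicate 1, and the other 3 ethanol libraries lay below every control library. The log2 fold change was -1.55 ± 0.60 (SE) with an adjusted p of 0.0918 in edgeR, which did not pass the threshold.

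Hbb-bt, the second adult beta globin gene, had 1.18, 0.42, 0 and 3.98 CPM in ethanol replicates 1 to 4, from 8, 2, 0 and 23 counts. It had 3.67, 6.72, 4.49 and 5.01 CPM in control replicates 1 to 4, from 14, 26, 18 and 18 counts. Ethanol replicate 4 lay within the control range. The log2 fold change was -1.78 ± 0.65 (SE) with an adjusted p of 0.0765 in edgeR, and so this gene did not pass either. The second exon entries of the beta pair had equal counts in 8 of 8 libraries, but the first did in 0 of 8, with 101 counts for Hbb-bs and 29 for Hbb-bt over all libraries.

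Hbb-bh1, a beta-like globin of the embryo, had 0 counts in every ethanol library and 0, 2, 0 and 1 in control replicates 1 to 4. The embryonic alpha-like Hba-x, looked at beside the members, had 1 count in the ethanol libraries and 0 in the control libraries. No level can be read from either.

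Ethanol replicate 4 had more globin counts than the rest of its group. The globin members together had 48, 12, 11 and 108 counts in ethanol replicates 1 to 4 and 71, 143, 104 and 106 in control replicates 1 to 4. Without ethanol replicate 4, the log2 fold changes were -2.75 for Hba-a1, -2.86 for Hba-a2, -2.59 for Hbb-bs and -3.12 for Hbb-bt, and all 4 had an adjusted p of 0.0339 in edgeR. In that fit 86 features were past the threshold lower and 957 higher, of 14282 tested. The library was singled out here by its globin counts, and the globins share reads, so these values are a description. Without ethanol replicate 2, Hba-a1 was at -1.81 with an adjusted p of 0.00845.

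Among 6532 mRNA exon features tested, whose median log2 fold change was 0.89, Hba-a1, Hba-a2, Hbb-bt and Hbb-bs held places 3, 4, 5 and 7 from the lowest. Only 10 of those features were called lower, and Hba-a1 and Hba-a2 were 2 of them. The other 8 were Alkbh1, Psg29, Col6a5, Plxna2, Rasa3, Fn1, Tuba8 and Mtfr2. The globins passed the filter on low counts, which asks for 2.28 CPM in 4 libraries, through the 4 control libraries, since ethanol libraries over that level numbered 1 for Hba-a1, 1 for Hba-a2, 2 for Hbb-bs and 1 for Hbb-bt. A globin equally low in both groups would not have been tested, so these places, and the lack of overlap in Hba-a1 and Hba-a2, are a description.

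With no filter on low counts, all 4 adult globins passed the threshold, where 0.239% of 19223 mRNA exon features were called lower. Their log2 fold changes were then -1.96 for Hba-a1, -1.95 for Hba-a2, -1.49 for Hbb-bs and -1.73 for Hbb-bt, with adjusted p of 0.00119, 0.00119, 0.0169 and 0.0111 in edgeR. In that fit miR-144-3p was at -2.85 ± 1.997 (SE, adjusted p = 0.521), which did not pass.

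With exon features alone in the fit, where 0.754% were called lower and 0.37% higher, Hba-a1 had a log2 fold change of -2.71 ± 0.50 (SE, adjusted p = 0.0300, edgeR) and Hba-a2 of -2.70 ± 0.51 (adjusted p = 0.0373). Hbb-bs was at -2.23 ± 0.61 and Hbb-bt at -2.50 ± 0.68, each with an adjusted p of 0.0620. Leaving out each library in turn, Hba-a1 ran from -3.35 to -2.28 and passed in 3 of 8 fits. Those 3 were the fits without ethanol replicates 2, 3 or 4, and adjusted p ran from 0.000261 to 0.142 over the 8. In the fit to exon features alone the globins had a median of -2.60. Of 12 sperm and spermatid genes 10 were also lower there at an unadjusted p under 0.05, none of them past the adjusted threshold, and their median was -1.14. The part of the sperm share in the globin result was not tested.

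The miRNAs and the globins did not rank the libraries alike. The summed CPM of the red cell miRNAs was 79.6, 40.8, 134 and 126 in ethanol replicates 1 to 4 and 280, 749, 111 and 1436 in control replicates 1 to 4. That of the globins was 7.05, 2.52, 2.26 and 18.7 in ethanol replicates 1 to 4 and 18.6, 37.0, 25.97 and 29.5 in control replicates 1 to 4. Ethanol replicate 3 had the highest miRNA sum of its group and the lowest globin sum, while control replicate 3 had the lowest miRNA sum of its group and a globin sum inside the control range.

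The ratio of red cell miRNA counts to globin counts, which compares libraries and not the levels of genes, was 11.3, 16.2, 64.5 and 6.75 in ethanol replicates 1 to 4. It was 15.1, 20.3, 4.26 and 48.7 in control replicates 1 to 4. The groups overlapped, and each held a library far above its others, ethanol replicate 3 and control replicate 4. Counts of globins were as few as 11 in a library, which limits this ratio.

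**Figure D4:**
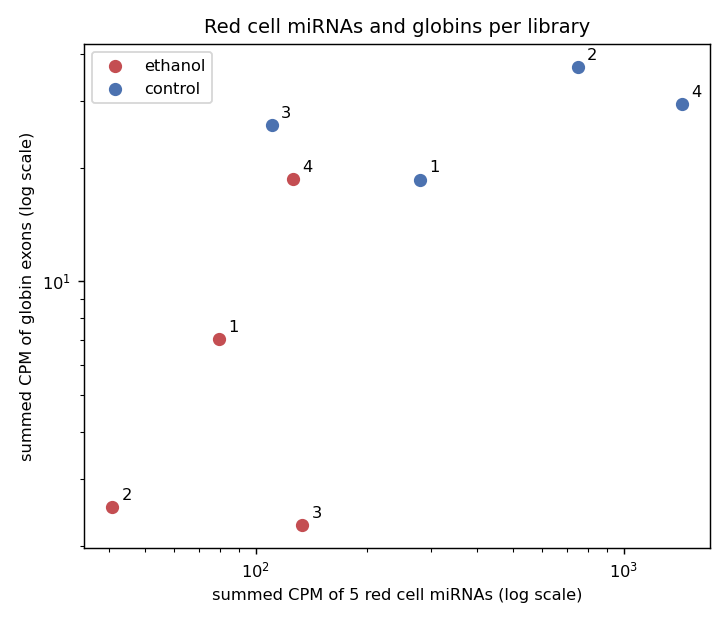
Summed CPM of the globins with Hba-x (vertical, log axis) against summed CPM of the 5 red cell miRNAs (horizontal, log axis), 1 point per library with its replicate number, ethanol in red and control in blue. Control replicate 4, at 1436 CPM of red cell miRNAs, and control replicate 3, at 111 CPM, have globin sums of 29.5 and 25.97 CPM.

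Across the 8 libraries, log2 CPM of miR-451a had a Pearson r of 0.97 with miR-486a-5p, 0.95 with miR-486b-5p and 0.98 with miR-144-5p. It was 0.75 with Hba-a1 and 0.58 with Hbb-bs. These are descriptions over 8 points that share their library scaling and their group difference. Over the 4 control libraries alone, r was 0.96, 0.96 and 0.98 with the same miRNAs, and 0.62 with Hba-a1 and 0.43 with Hbb-bs.

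Among 127 miRNA entries that are not members, with a mean of at least 10 CPM and no 0, those most like miR-451a over the 8 libraries were its own precursor entry mmu-mir-451a (r = 0.97), miR-423-5p (0.92), miR-143-3p (0.88), miR-463-3p (0.87) and miR-30b-5p (0.87). The median over the 127 was 0.76. The members themselves were left out of this search. Among 1835 mRNA exon features the most alike were Safb2 (0.92), Ift122 (0.90), Akna (0.88), Col26a1 (0.87) and Klc2 (0.84), with a median of -0.52.

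Set against Hbb-bs, the globin with the highest mean CPM when not corrected for length, the most alike miRNA entries were miR-743a-3p (0.74), miR-151-5p (0.74), mmu-mir-451a (0.71), miR-191-5p (0.71) and miR-93-5p (0.71), with a median of 0.49. The most alike exon features were Lrp1 (0.72), Ift122 (0.68), C3 (0.66), Myo15 (0.65) and Zmiz1 (0.64), with a median of -0.45. Ift122 was the 1 exon feature in both groups of names.

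Other mRNAs of the red cell programme were read from lists of genes chosen for their roles, with log2 fold changes, ethanol over control, given in brackets. Of 9 heme synthesis genes 4 could be tested, and all 4 rose, as did 23.8% of tested mRNA exon features. They were Alad (log2 fold change 2.59 ± 0.62, SE, adjusted p = 0.0286, edgeR), Alas1 (1.67), Cpox (1.55) and Fech (1.40). Alas1 encodes the housekeeping form of the enzyme that starts the pathway. Alas2, its red cell form, had 9 counts in ethanol libraries and 9 in control libraries and could not be tested. The list's median was 1.61, against 0.89 over mRNA exon features. With exon features alone in the fit 5 were tested, 0 were called and 3 were higher at an unadjusted p under 0.05, with a median of 0.76. The list's summed level was 159 CPM in ethanol replicate 2, against 33.0 to 46.2 CPM in the other ethanol libraries and 11.3 to 23.0 CPM in control sperm. Without ethanol replicate 2, Alad was at 1.37 (adjusted p = 0.0101, edgeR), and Alas1 (0.96, adjusted p = 0.101), Fech (1.04, adjusted p = 0.0502) and Cpox (1.20, adjusted p = 0.113) did not pass.

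Of 14 red cell enzyme and maturation genes 5 were tested, with a median of 1.55 against 0.89 over mRNA exon features. Of the 5, 3 rose, where 23.8% of tested mRNA exon features did. These were Prdx2, a peroxidase abundant in red cells and in many others (2.31), Isg20, an exonuclease (2.81), and Bnip3l, which is needed for clearance of mitochondria in maturing red cells (1.47). Without ethanol replicate 2, Isg20 was at 1.17 (adjusted p = 0.112, edgeR) and Bnip3l at 0.93 (adjusted p = 0.0747), neither past the threshold, and Prdx2 was at 1.56 (adjusted p = 0.0198). Isg20 had 45.03 CPM in that library, against 3.11 to 8.23 CPM in the other ethanol libraries. Of 16 membrane and skeleton genes 2 were tested, and neither passed: Xk was at 1.60 (adjusted p = 0.0531, edgeR) and Epb41, encoding protein 4.1, at 0.75 (adjusted p = 0.253). Slc4a1, encoding the anion exchanger band 3, had 5 counts in ethanol libraries and 3 in control libraries.

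Of 8 erythroid transcription factor genes 3 were tested, with a median of 0.81. Of the 3, 1 rose, the GATA1 cofactor Zfpm1 (2.09, adjusted p = 0.0291, edgeR), as did 23.8% of tested mRNA exon features. Gata1 itself had 2 counts in ethanol libraries and 2 in control libraries, and Klf1 had 5 in ethanol libraries and 3 in control libraries. Of 9 genes reported elsewhere as targets of the red cell miRNAs 6 were tested, with a median of 1.23 against 0.89 over mRNA exon features. With exon features alone in the fit 8 were tested, 0 were called and the median was 0.31. In the fit over all features 2 of the 6 rose, where 23.8% of tested mRNA exon features did. These were Nfe2l2, an oxidative stress factor (1.85), and Ywhaz, a 14-3-3 protein gene reported as a miR-451a target (1.37). Zfpm1 at 1.53 and Nfe2l2 at 1.11 were past the threshold without ethanol replicate 2, and Ywhaz at 0.85 was not (adjusted p = 0.0690, edgeR). With exon features alone in the fit, none of the genes named here from these lists passed the threshold: Prdx2 was at 1.39, Zfpm1 at 1.23 and Nfe2l2 at 0.93, and their adjusted p were 0.0784, 0.0805 and 0.104.

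**Figure D5:**
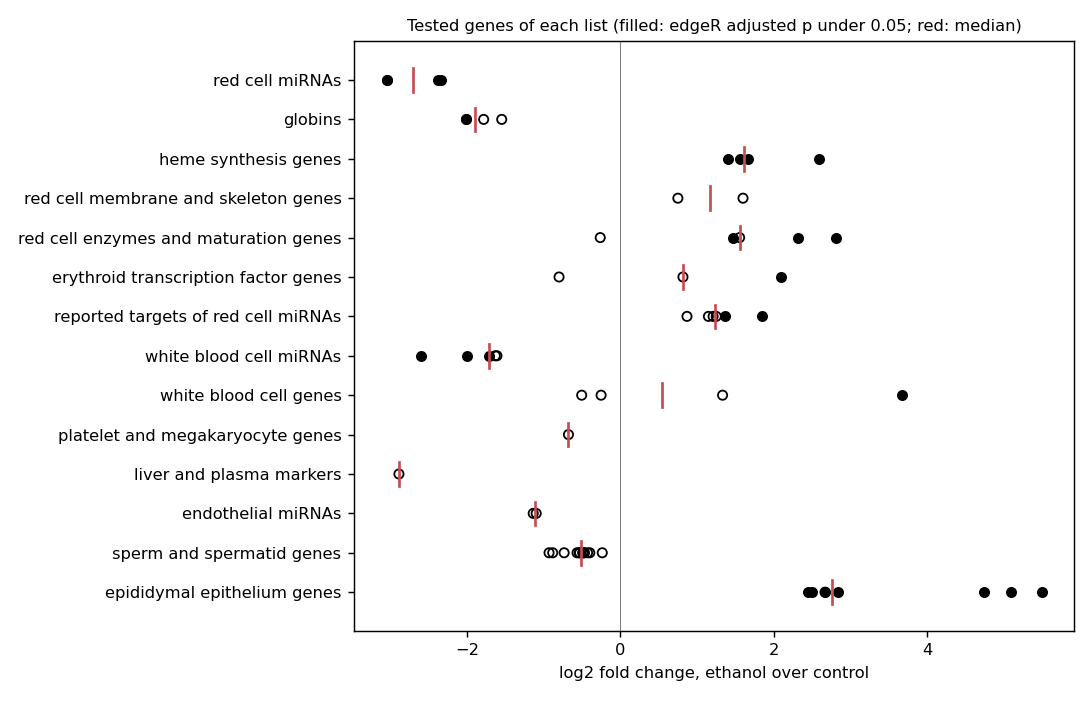
Log2 fold changes (ethanol over control) of each tested gene of each marker list, 1 point per gene, with filled points past the adjusted p threshold of 0.05 and list medians as red bars. The red cell miRNAs (median -2.70) and globins (median -1.90) lie below 0, and the heme synthesis genes (median 1.61) above.

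Markers of other cells were read beside these results. Of 6 white blood cell miRNAs 5 were tested, with a median of -1.72, against -1.52 over all tested miRNAs. Of the 5, 3 fell, as did 39.4% of all tested miRNAs. They were miR-223-3p of myeloid cells (-1.996), miR-150-5p of mature lymphocytes (-2.60) and miR-155-5p of activated immune cells (-1.72). The summed level of the white blood cell miRNAs was 36.4 to 212 CPM in ethanol sperm and 276 to 482 CPM in control sperm. With miRNAs alone in the fit none of the 5 was called, at an adjusted or an unadjusted p, and miR-223-3p was at -0.43. In the fit over all features without ethanol replicate 2, miR-150-5p did not pass (-2.56, adjusted p = 0.105, edgeR). Of 12 white blood cell genes 4 were tested and 1 rose, where 23.8% of tested mRNA exon features did. It was Cd52 (3.67), which is also strongly expressed in the epididymis. Cd52 had 2685 CPM in ethanol replicate 2, against 175 to 395 CPM in the other ethanol libraries, and without that library it was at 1.97 (adjusted p = 0.00400, edgeR). With exon features alone in the fit it was at 2.48 (adjusted p = 0.0620). Ptprc, the pan-leukocyte CD45 gene, had 17 counts in ethanol libraries and 16 in control libraries, too few to be tested. Its means were 0.73 CPM in ethanol sperm and 1.07 CPM in control sperm. Other untested genes of the list differed in direction. S100a8 had 114 counts in ethanol libraries and 8 in control libraries, and Lyz2 had 25 in ethanol libraries and 38 in control libraries.

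Of 6 liver and plasma markers 1 was tested, the hepatocyte miR-122-5p, at -2.89 with an adjusted p of 0.0613 in edgeR, and Alb had 6 counts in ethanol libraries and 18 in control libraries. Of 6 platelet genes 1 was tested, Vwf (-0.68, adjusted p = 0.273), Itga2b had 94 counts in ethanol libraries and 30 in control libraries, untested, and Ppbp had 0 counts in ethanol libraries and 1 in control libraries. The endothelial miR-126a-3p (-1.14, adjusted p = 0.117) and miR-126a-5p (-1.10, adjusted p = 0.174) did not pass. Without any 1 of the control libraries, none of the genes and miRNAs named from the marker lists as having risen or fallen passed the threshold. Of all features 3, 3, 7 and 10 passed it without control replicates 1, 2, 3 and 4 in turn.

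Transcripts that sperm retain were present in all 8 libraries: the 12 sperm and spermatid genes listed, protamine genes Prm1 and Prm2 among them, all had enough counts to be tested. Their summed level was 226 to 618 CPM in ethanol sperm and 559 to 732 CPM in control sperm, and their median log2 fold change was -0.51. None passed the adjusted threshold in edgeR over all features, with 2 lower at an unadjusted p under 0.05, and DESeq2's Wald test called 2 lower. The mitochondrial capsule gene Smcp was at -0.93 (adjusted p = 0.126), Prm1 at -0.88 (adjusted p = 0.136) and the tail fibre gene Odf1 at -0.54 (adjusted p = 0.384).

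Of 12 epididymal epithelium genes listed 8 were tested, with a median of 2.75 against 0.89 over mRNA exon features. Of the 8, 7 rose, where 23.8% of tested mRNA exon features did. Among them were the keratin genes Krt8 (2.45) and Krt18 (2.67), the sperm-coating Crisp1 (2.83) and Spink8 (2.49). In these 4 every ethanol library was above every control library, while in others of the 7 the groups overlapped. With exon features alone in the fit 0 of the 8 were called and 7 were higher at an unadjusted p under 0.05, with a median of 1.69. The 4 named, in the fit over all features without ethanol replicate 2, were at 1.503, 1.56, 1.48 and 1.46, each past the threshold. Their summed level was 1098 to 16041 CPM in ethanol sperm, highest in ethanol replicate 2, and 492 to 971 CPM in control sperm. Ethanol replicate 2 also had the fewest miRNA counts per library and the lowest CPM of miR-451a. The part of the epididymal, white cell and miRNA shares in the red cell results was not tested.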

How the data were processed

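For the 8 sperm libraries the authors deposited a single table of raw counts (whole numbers) with 1078961 rows of annotated features, per the file headers. Extraction with Trizol and Qiaseq library reagents are stated per the labels' protocols. The aligner, genome build, counting rule, handling of multiply aligned reads, and whether counts are reads or molecules are not given in the sources used here. Entries of 1 name and type were summed to 45405 features in 15 classes, and exon entries to genes. All 8 count columns matched the sample descriptions.

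Ethanol (4 libraries) was compared with control (4 libraries) in edgeR 4.0.16 under R 4.3.3, with TMM scaling, a minimum count of 10 in filterByExpr, robust quasi-likelihood fits and Benjamini-Hochberg adjustment over 13513 features at 0.05. Log2 fold changes are ethanol over control, and CPM use TMM-scaled totals. DESeq2 1.42.0, limma-voom (limma 3.58.1), other scalings and filters, fits within a class, a replicate block and each library left out were alternatives. The procedure was tested on simulated counts with 100 features changed 2-fold and 100 changed 4-fold. It recovered 6 of the 2-fold and 60 of the 4-fold changes, with 2 false calls, so many changes of that size would be missed.

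A ratio of miR-451a to miR-23a-3p had been planned, but the table used here gives no value for miR-23a-3p, so miR-16-5p took its place. Intervals are Wilson 95% intervals of counting error only. Every member is named. From each other list the text names up to 4 genes past the threshold by smallest p, otherwise the 2 with the highest mean CPM. Genes named outside that rule, chosen after their values were seen, are Alas2, Slc4a1, Gata1, Klf1, Ptprc, S100a8, Lyz2, Ppbp, Hba-x, Prm1, Prm2 and the 8 other mRNAs called lower. Members and lists were chosen with earlier results of these data known. Sequences are RefSeq's on GRCm38.p6, used for names and sequence only.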

Additional observations from a re-analysis of the deposited data

Results flagged for a closer look

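In miR-144-3p, ethanol replicate 3 stood apart from its group, at 5.09 CPM against 0 in the other 3 ethanol libraries. Control replicate 4 stood apart likewise, at 32.8 CPM against 3.93, 0 and 1.25 in control replicates 1 to 3. For control replicate 4, the gap to the nearest library of the group exceeded Dixon's critical share of the group's whole range, which chance gives in about 1 in 20 groups, and 26 groups were tested. For ethanol replicate 3 the gap is the whole range by construction, since the other 3 libraries are listed at 0, so that rate does not apply and the value is only a description.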

How the results depend on the processing

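All 173 refits of tested members under other settings gave a negative log2 fold change. Adjusted p was less stable. Over all features the count past the threshold was 1837; it was 1201 with DESeq2 size factors, 3432 with no filter, 782 with a minimum count of 30, 3303 with ethanol replicates 1 and 2 only, 816 with ethanol replicates 3 and 4 only, 3140 with DESeq2's Wald test, 8 with limma-voom, 85 with exon features alone and 1 with miRNAs alone. Leaving out 1 library gave 3 to 3568. Of 8 members tested 6 were past it. There were 3 of 4 tested with a minimum count of 30, 2 of 4 with exon features alone (Hba-a1 and Hba-a2, as over all features), 0 of 4 with miRNAs alone, 0 of 8 with limma-voom and 0 of 9 with ethanol replicates 3 and 4 only. At an unadjusted p under 0.05 those last 3 fits had 1, 8 and 6. Leaving out 1 library gave 0 to 8. MiR-451a ran from -3.48 to -2.39 without 1 library, was -2.57 with ethanol replicates 3 and 4 only, -2.51 with limma-voom and -1.60 with miRNAs alone. The cause was not tested.

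Scaling by library totals moved the median over all features to 0.25, and Hba-a2 to -1.77 (adjusted p = 0.0511, edgeR). In that fit 5 members were past the threshold, as were 95 features lower and 1465 higher of 13513 tested. Epb41 changed sign with exon features alone (-0.14), as did miR-126a-3p (0.23) and miR-126a-5p (0.065) with miRNAs alone. DESeq2 gave no adjusted p for Cd52. The miR-451a to miR-16-5p difference ran from -1.48 to -0.28 without 1 library.

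Deviations of same-numbered libraries from their group means had r = 0.34, 0.21, -0.13 and -0.02 for replicates 1 to 4. Their sign differed between numbers and the labels state no pairs, so the numbers were not taken as pairs. A replicate block gave 3291 features and 7 members past the threshold, all tested but miR-144-5p, with miR-451a at -2.61, and an exact sign-flip p of 0.375 for the ratio.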
